A study of Mus musculus with 12 samples.

Results

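The 10 genes described here, Acta2, Tagln, Myh11, Cnn1, Des, Pdgfra, Pdgfrb, Cspg4, Rgs5 and Notch3, are markers of mesangial cells, pericytes and smooth muscle. They were chosen by name, as markers of these cells, and make up 10 of the 57490 genes in the deposited count table. All 10 had enough counts to be tested, among 17431 genes tested.

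The series measured kidney RNA by polyA RNA sequencing in 12 male mice, 4 per group. The Ctrl mice are db/m mice, which the labels call wild-type and the protocol calls heterozygote db/+ on the BKS strain. The Model and YHY mice are db/db mice of the strain BKS. Cg-Dock7m +/+ Leprdb/JNju. These mice carry the leptin receptor mutation in every tissue and become obese as well as diabetic. Yiqi Huoxue Yangyin Decoction (YHY), a herbal water extract at 6.24 g/mL, was gavaged once a day for 4 weeks in the YHY group, with 50 µL for every 10 g a mouse weighed. Ctrl and Model mice received the same volume of purified water. Mice arrived at 8 weeks of age, db/db mice entered the study at a blood glucose of at least 16.7 mmol/L and db/+ mice below 11.1 mmol/L, and kidneys were taken at 13 weeks. The sample labels name whole kidney tissue, whereas the series description names renal cortex, and each library stands for 1 mouse. Model against Ctrl asks what differs in diabetic mice, and YHY against Model asks what differs with the decoction. YHY against Ctrl is the remaining pair, and the 3 comparisons share mice with each other.

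Mesangial cells hold the capillaries of the glomerulus together, pericytes wrap the small vessels between the tubules, and smooth muscle cells form the wall of arteries and arterioles. All of them lie under or around endothelium and depend on platelet-derived growth factor (PDGF) from endothelial cells and on Notch signals between neighbouring cells. Contractile proteins set the tone of the vessel, and in injured kidneys pericytes and mesangial cells are known to take up features of myofibroblasts.

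Total counts per mouse ran from 29632718 to 33276634 in Ctrl, from 24415658 to 29784346 in Model and from 25149764 to 29698342 in YHY. A single count stood for 0.0228 to 0.0553 CPM (counts scaled to a common library size with edgeR's TMM factors), the unit of every level given here. Transcripts of the mitochondrial genome took 18.6%, 22.7%, 18.4% and 18.5% of the counts in Ctrl 1 to 4. The share was 41.2%, 58.9%, 55.3% and 53.4% in Model 1 to 4, and 53.8%, 64.6%, 54.6% and 54.2% in YHY 1 to 4. Every db/db library thus held more mitochondrial transcripts than every Ctrl library, Ctrl 2 and YHY 2 stood above the other mice of their groups, and Model 1 stood below those of its own by a wider gap. TMM factors lay between 1.08 and 1.35 in Ctrl, 0.797 and 1.04 in Model, and 0.720 and 1.04 in YHY. How the libraries are scaled therefore bears on each comparison with Ctrl, and values with library size alone are given for the called genes among the 10. A gene is called here when its P in edgeR's quasi-likelihood test, adjusted over all 17431 genes by the Benjamini-Hochberg method, is under 0.05.

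The tissue label was checked against markers of kidney cells. Slc34a1, the phosphate transporter of the proximal tubule, stood at a mean of 2007 CPM over the 12 mice, Slc12a1 of the thick ascending limb at 856 CPM and Aqp2 of the collecting duct at 393 CPM. In each list of genes below, the most abundant is the one with the highest mean CPM, without regard to gene length.

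The 10 genes were ranked by level per kb of gene length. In Ctrl mice, Acta2 (smooth muscle actin) stood highest at 23.5 ± 4.74 CPM per kb (SD, n = 4 mice), followed by Rgs5, a pericyte brake on G protein signalling, at 16.4 ± 2.19 CPM per kb. Pdgfrb followed at 5.04 ± 0.399 CPM per kb, Myh11 at 4.28 ± 0.429, Des at 3.20 ± 0.503 and Pdgfra at 2.85 ± 0.357. The lowest levels in Ctrl were those of Notch3 at 1.01 to 1.30 CPM per kb, Cspg4 at 1.07 ± 0.165, Cnn1 at 0.742 ± 0.312 and Tagln at 0.174 ± 0.0601. Neighbours in this order overlapped between mice for Acta2 and Rgs5, Pdgfrb and Myh11, Des and Pdgfra, Notch3 and Cspg4, and Cspg4 and Cnn1. In Model, Acta2 and Rgs5 again led, at 25.8 ± 2.52 and 13.1 ± 1.41 CPM per kb, and did not overlap. Des stood above Myh11 in Model without overlap, at 5.91 ± 0.526 against 3.83 ± 0.518 CPM per kb, the reverse of their order in Ctrl. Cspg4 stood above Notch3 in Model, at 2.08 ± 0.306 against 1.50 ± 0.403 CPM per kb, and those ranges overlapped. In YHY the 3 highest were Acta2, Rgs5 and Pdgfrb, at 27.0 ± 3.29, 13.9 ± 2.04 and 8.49 ± 1.64 CPM per kb, and Pdgfra came next at 7.36 ± 3.41. Tagln was last in all 3 groups.

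Regulatory sequence was searched because many contractile genes are switched by serum response factor through a motif named the CArG box. RefSeq promoters (GRCm38.p6, the 250 bases before the start, both strands) were found for 7 of the 10 genes, and not for Tagln, Myh11 and Pdgfrb. The exact CArG box occurred in 0 of these 7 promoters and in 1.47% of 32851 promoters of that table. With at most 1 mismatch, an alternative chosen after seeing the data, it occurred in 2 of the 7, Acta2 and Cspg4, and in 18.6% of all promoters. The Acta2 promoter (chr19:34255374-34255623, minus strand) holds stretches that begin 84 and 34 bases before the start, and the Cspg4 promoter (chr9:56864854-56865103, plus strand) holds 2 overlapping stretches that begin 238 and 237 bases before it. Both promoters are shown because they are the ones that hold such a stretch, written 5′ to 3′ with the stretch in capitals.
Acta2: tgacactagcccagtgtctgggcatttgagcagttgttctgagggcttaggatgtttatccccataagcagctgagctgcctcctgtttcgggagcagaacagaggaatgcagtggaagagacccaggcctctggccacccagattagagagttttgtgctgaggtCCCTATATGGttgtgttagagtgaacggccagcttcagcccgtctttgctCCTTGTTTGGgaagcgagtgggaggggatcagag
Cspg4: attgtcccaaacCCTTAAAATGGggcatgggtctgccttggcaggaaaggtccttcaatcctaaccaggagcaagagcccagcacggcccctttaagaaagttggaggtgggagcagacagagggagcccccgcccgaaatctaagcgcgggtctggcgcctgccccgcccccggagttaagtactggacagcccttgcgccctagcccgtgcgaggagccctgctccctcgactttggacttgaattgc
A match describes these letters alone, and its absence from the promoters of Des, Cnn1, Pdgfra, Rgs5 and Notch3 says only that the window lacks it. Of the genes shown, Acta2 was called in no comparison and Cspg4 was higher in Model.

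In Model against Ctrl, Des, Cspg4, Pdgfra and Pdgfrb were higher in diabetic mice, so 4 of the 10 genes were called, against 38.0% of all genes tested. All 4 calls were toward higher levels, against 19.6% of all genes called higher and 18.5% called lower. The share of genes called is near that of all genes and is no result about these genes as a group. By edgeR with TMM 0 of the 10 genes were called lower. Library size alone called 1 higher and 2 lower in edgeR, against 1547 higher and 5667 lower of all 17431 genes (41.4%). With only the 8 mice of the pair edgeR called 4 higher and 1 lower, against 46.4% of all genes. At a fold change over 1.2 with an unadjusted P under 0.05, the limits of the study, 5 genes passed, against 46.9% of all genes, and Rgs5 was the 1 gene lower. DESeq2 called 4 genes higher and 0 lower, against 41.6% of all genes.

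For YHY against Model, 1 of the 10 genes, Myh11, was called, against 13.3% of all genes tested. It was higher in YHY, a direction in which 5.63% of all genes were called, with 7.62% called lower. At a fold change over 1.2 with an unadjusted P under 0.05, 3 genes passed (Myh11 and Pdgfra higher, Cspg4 lower), against 28.6% of all genes. For YHY against Ctrl, 4 genes were called, Des, Pdgfra, Pdgfrb and Notch3, against 50.3% of all genes tested. All 4 were higher in YHY, a direction that took 26.1% of all genes, against 24.2% called lower. The fold and unadjusted P limits passed 5 genes there, Myh11 in addition, against 56.0% of all genes. DESeq2 and the fold limits each called 0 of the 10 genes lower in YHY against Ctrl. Of all 17431 genes DESeq2 called 4846 higher and 4392 lower there. With library size alone edgeR called 1 of the 10 genes higher and 1 lower, against 2365 higher and 5977 lower of all genes.

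**Figure D1:**
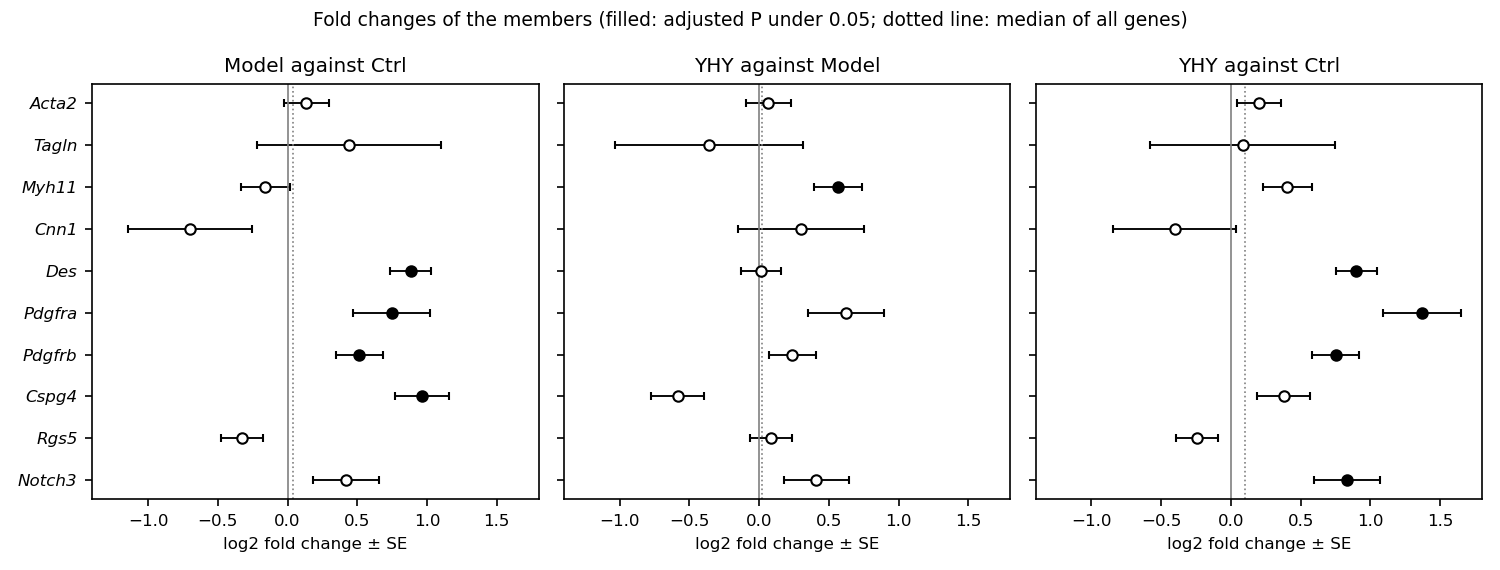
Log2 fold change of each gene with its standard error in the 3 comparisons (n = 4 mice per group), with filled points for an edgeR adjusted P under 0.05 and a dotted line at the median of all 17431 genes tested. Des, Pdgfra, Pdgfrb and Cspg4 are filled to the right of 0 in Model against Ctrl, at 0.88, 0.75, 0.51 and 0.96, and Myh11 at 0.56 is the 1 filled point in YHY against Model.

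The contractile genes come first. Des (ENSMUSG00000026208, chromosome 1, 75336973 to 75345223 in GRCm39) encodes desmin, the intermediate filament of muscle cells and of mesangial cells. The study also used desmin as a marker of podocyte injury. Des stood at 12.9, 9.17, 13.1 and 12.8 CPM in Ctrl 1 to 4, at 19.5, 24.2, 23.0 and 22.0 CPM in Model 1 to 4, and at 21.6, 24.6, 21.7 and 21.7 CPM in YHY 1 to 4. Every db/db mouse, treated or not, lay above every Ctrl mouse, Ctrl 2 was low within its group, and the Model and YHY mice overlapped. The mean was 12.0 ± 1.89 CPM in Ctrl, 22.2 ± 1.98 in Model, 22.4 ± 1.48 in YHY (SD, n = 4 each). Des rose by 0.88 ± 0.15 (log2 fold change ± SE, 1.84-fold) in Model against Ctrl, higher in 4 of 4 mice than the Ctrl mean, with an edgeR adjusted P of 0.000266. On the CPM scale the exact permutation test, two-sided over 70 regroupings of 4 and 4 mice, gave P = 0.0286, the smallest it can give. When YHY was set against Ctrl, the rise was 0.90 ± 0.15 with an edgeR adjusted P of 0.000113, and in YHY against Model the value was 0.01 ± 0.15 with an edgeR adjusted P of 0.967. Leaving out any 1 mouse kept both calls, whereas scaling by library size alone ended them, at 0.43 with an edgeR adjusted P of 0.0830 in Model and 0.45 with 0.0625 in YHY. Because whole tissue was sequenced, a change in the number of cells of a type and a change in RNA per cell cannot be told apart, for Des and for every gene given here.

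Myh11 (ENSMUSG00000018830, chromosome 16, 14012399 to 14109236) encodes the heavy chain of smooth muscle myosin. Myh11 stood at 33.2, 35.6, 33.4 and 28.0 CPM in Ctrl 1 to 4, at 33.4, 31.4, 25.2 and 26.5 CPM in Model 1 to 4, and at 41.4, 49.3, 52.8 and 29.1 CPM in YHY 1 to 4. YHY 1, 2 and 3 lay above every Model and every Ctrl mouse, YHY 4 lay among them, and the groups therefore overlapped. Means were 32.6 ± 3.26 CPM in Ctrl, 29.1 ± 3.93 in Model, 43.1 ± 10.5 in YHY. Myh11 rose by 0.56 ± 0.18 (1.48-fold) in YHY against Model, in 3 of 4 mice above the Model mean, with an edgeR adjusted P of 0.0439. The exact permutation test on CPM gave P = 0.0857 for the same pair. The call is close to the limit: it was lost when any 1 mouse other than YHY 4 was left out, at edgeR adjusted P from 0.0519 to 0.136, and without YHY 4 the rise was 0.71 at an edgeR adjusted P of 0.00663. The value stayed near as large where the call was also lost, at 0.57 with library size alone (edgeR adjusted P = 0.121), 0.62 with only the 8 mice of the pair (0.0718) and 0.49 without Ctrl 2 and YHY 2, an alternative chosen after seeing the data (0.112). Without Ctrl 2, Model 1 and YHY 4, the mice that earlier results of these data found left out of the authors' group means, it was 0.80 and called (0.00695). For Model against Ctrl Myh11 stood at -0.16 ± 0.17 with an edgeR adjusted P of 0.501, and in YHY against Ctrl at 0.41 ± 0.17 with an edgeR adjusted P of 0.0636. Without YHY 4 the value in YHY against Ctrl was 0.55, called at an edgeR adjusted P of 0.00646.

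Acta2 (ENSMUSG00000035783, chromosome 19, 34218490 to 34232990) encodes the actin of smooth muscle, which myofibroblasts also make. Acta2 stood at 62.5, 54.2, 52.3 and 37.5 CPM in Ctrl 1 to 4, at 58.5, 63.5, 50.9 and 53.7 CPM in Model 1 to 4, and at 58.0, 67.7, 61.2 and 50.3 CPM in YHY 1 to 4. Ctrl 4 was the lowest of the 12 mice, YHY 2 the highest, and all 3 groups overlapped. Its log2 fold change was 0.13 ± 0.16 in Model against Ctrl (edgeR adjusted P = 0.534), 0.07 ± 0.16 in YHY against Model (0.838) and 0.20 ± 0.16 in YHY against Ctrl (0.313). It was called in Model against Ctrl in 1 of the 23 alternatives, library size without mitochondrial transcripts (0.47, edgeR adjusted P = 0.0294), and its sign turned there with library size alone (-0.29). In YHY against Ctrl the same scalings gave 0.68 (edgeR adjusted P = 0.00224) and -0.22. Genes with near-identical coding sequence, Actg2, Acta1 and Actc1, had mean levels of 0.576, 0.101 and 0.0333 CPM, and how the counting split reads between them is not stated, so small differences in Acta2 are uncertain.

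Cnn1 and Tagln, which encode the actin-binding proteins calponin and transgelin, were scarce in these libraries. Cnn1 (ENSMUSG00000001349, chromosome 9, 22010512 to 22020926) had 13 to 133 counts per mouse and 0.619 to 3.19 CPM. Its mean was 2.03 ± 0.854 CPM in Ctrl, 1.24 ± 0.443 in Model, 1.54 ± 0.631 in YHY, with overlap between all groups and a log2 fold change of -0.70 ± 0.44 in Model against Ctrl that did not pass (edgeR adjusted P = 0.228). Tagln (ENSMUSG00000032085, chromosome 9, 45840917 to 45847356) had 3 to 22 counts per mouse, with means of 0.346 ± 0.120, 0.476 ± 0.345 and 0.364 ± 0.168 CPM in Ctrl, Model and YHY. The standard errors of Tagln ran from 0.66 to 0.67 on the log2 scale, so a difference of the size seen for Des would lie within 2 of them. Whether few counts or spread between mice made them wide was not tested. In the GENCODE vM21 annotation, 67.9% of the exonic bases of Tagln, 1349 of 1988, are also exonic bases of Pcsk7 or Gm48529 on the opposite strand. Pcsk7 had 578 to 1160 counts per mouse and Gm48529 had 17 to 65. The libraries were made with a dUTP step that keeps strand, but the strand setting of the counting is not stated, so reads of Tagln and its antisense neighbours may not have been told apart and its low values are uncertain.

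**Figure D2:**
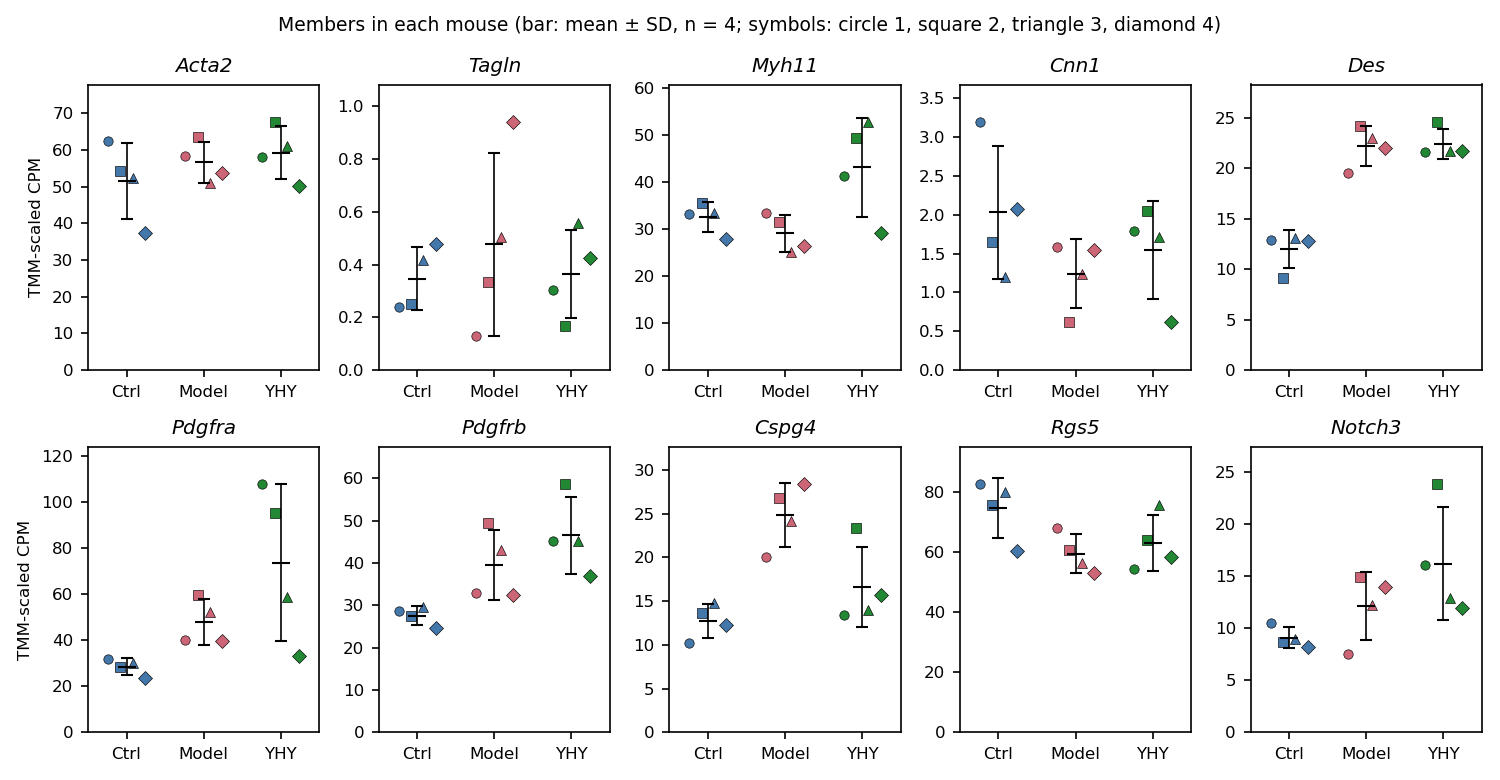
TMM-scaled CPM of each gene in each of the 12 mice, with the mean and SD of the 4 mice of a group; each axis starts at 0. Des lies between 9.17 and 13.1 CPM in Ctrl and between 19.5 and 24.6 CPM in the 8 db/db mice, and Pdgfra spreads from 33.01 to 107.9 CPM in YHY.

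The PDGF receptors are tyrosine kinases that drive the growth and recruitment of pericytes, mesangial cells and fibroblasts. Pdgfra (ENSMUSG00000029231, chromosome 5, 75312953 to 75358876), which binds PDGF-A, PDGF-B and PDGF-C, stood at 31.9, 28.4, 30.3 and 23.6 CPM in Ctrl 1 to 4. It stood at 40.0, 59.7, 52.5 and 39.5 CPM in Model 1 to 4, and at 107.9, 95.4, 58.9 and 33.01 CPM in YHY 1 to 4. Every db/db mouse lay above every Ctrl mouse, and YHY spread widely, with YHY 1 and 2 above every other mouse and YHY 4 below every Model mouse. Means were 28.6 ± 3.58 CPM in Ctrl, 48.0 ± 9.86 in Model, 73.8 ± 34.2 in YHY. Pdgfra rose by 0.75 ± 0.27 (1.68-fold) in Model against Ctrl, in 4 of 4 mice above the Ctrl mean, with an edgeR adjusted P of 0.0421 and an exact permutation P of 0.0286. That call was lost when any 1 of Ctrl 1 to 4 or Model 1, 2 or 3 was left out, at edgeR adjusted P from 0.0583 to 0.136. It was lost too with library size alone, where the value was 0.29 (edgeR adjusted P = 0.414), and without Ctrl 2 and YHY 2, where it was 0.74 (0.0704). For YHY against Ctrl it rose by 1.37 ± 0.28 (2.58-fold) with an edgeR adjusted P of 0.000705, a call that every alternative tried kept, at 0.95 with library size alone. With YHY set against Model, the value was 0.62 ± 0.27 with an edgeR adjusted P of 0.145. Without YHY 4 it was 0.86, called at an edgeR adjusted P of 0.0117, and without Ctrl 2, Model 1 and YHY 4 it was 0.80, called at 0.0346. Some alternatives lowered it, to 0.38 at the lowest with a mouse left out and to 0.47 without Ctrl 2 and YHY 2 (edgeR adjusted P = 0.343). Others raised it without a call, to 0.79 with library size without mitochondrial transcripts (edgeR adjusted P = 0.0811) and 0.68 with only the 8 mice of the pair (0.184).

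Pdgfrb (ENSMUSG00000024620, chromosome 18, 61178222 to 61218133), the receptor by which pericytes and mesangial cells answer PDGF-B, had its group means in the same order as Pdgfra. Pdgfrb stood at 28.8, 27.6, 29.5 and 24.6 CPM in Ctrl 1 to 4, at 32.996, 49.5, 43.0 and 32.4 CPM in Model 1 to 4, and at 45.2, 58.7, 45.3 and 36.9 CPM in YHY 1 to 4. Every db/db mouse again lay above every Ctrl mouse, while Model and YHY overlapped. Means were 27.6 ± 2.19 CPM in Ctrl, 39.5 ± 8.28 in Model, 46.5 ± 9.01 in YHY. Pdgfrb rose by 0.51 ± 0.17 (1.43-fold) in Model against Ctrl, in 4 of 4 mice above the Ctrl mean, with an edgeR adjusted P of 0.0249 and an exact permutation P of 0.0286. The call was lost when any 1 of Ctrl 1 to 4 or Model 2 or 3 was left out, at edgeR adjusted P from 0.0501 to 0.104, and with library size alone, where the value was 0.06 (0.802). When YHY was set against Ctrl, it rose by 0.75 ± 0.17 (1.68-fold) with an edgeR adjusted P of 0.00163, a call lost with library size alone, where the value was 0.31 (0.149). YHY against Model gave 0.24 ± 0.17 with an edgeR adjusted P of 0.383, and with a mouse left out the value ran from 0.10 to 0.36.

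Among the pericyte genes, Cspg4 (ENSMUSG00000032911, chromosome 9, 56772317 to 56807154) encodes the proteoglycan NG2 of the pericyte surface. Cspg4 stood at 10.2, 13.7, 14.8 and 12.2 CPM in Ctrl 1 to 4, at 20.1, 26.8, 24.1 and 28.4 CPM in Model 1 to 4, and at 13.4, 23.3, 14.0 and 15.7 CPM in YHY 1 to 4. Every Model mouse lay above every Ctrl mouse, and 3 of the YHY mice lay between 13.4 and 15.7 CPM, near the Ctrl mice, with YHY 2 among the Model mice. Means were 12.7 ± 1.97 CPM in Ctrl, 24.8 ± 3.65 in Model, 16.6 ± 4.59 in YHY. Cspg4 rose by 0.96 ± 0.19 (1.95-fold) in Model against Ctrl, in 4 of 4 mice above the Ctrl mean, with an edgeR adjusted P of 0.00102 and an exact permutation P of 0.0286. It was called in this comparison under all 23 alternatives tried, at 0.53 with library size alone. In YHY against Model the log2 fold change was -0.58 ± 0.19, below the Model mean in 4 of 4 mice, and just missed the limit at an edgeR adjusted P of 0.0536 (exact permutation P = 0.0571). Leaving out Ctrl 1, Model 1 or YHY 2 brought it under the limit, at -0.79 to -0.60 and edgeR adjusted P from 0.0115 to 0.0467. It was called lower as well by DESeq2 (adjusted P = 0.0380) and, in edgeR, with the replicate block (adjusted P = 0.0355) and with no filter beyond 1 count (0.0369). Of the 23 alternatives, 7 called it. The value moved away from the limit with only the 8 mice of the pair (-0.54, edgeR adjusted P = 0.114). The same held with library size without mitochondrial transcripts (-0.46, 0.123), and with a mouse left out edgeR adjusted P reached 0.129. In YHY against Ctrl it stood at 0.38 ± 0.19 with an edgeR adjusted P of 0.109.

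Rgs5 (ENSMUSG00000026678, chromosome 1, 169483070 to 169523382), a widely used marker of pericytes, had no call. Rgs5 stood at 82.6, 75.6, 80.0 and 60.3 CPM in Ctrl 1 to 4, at 67.9, 60.5, 56.3 and 53.1 CPM in Model 1 to 4, and at 54.2, 64.1, 75.6 and 58.2 CPM in YHY 1 to 4. Ctrl 1, 2 and 3 lay above every Model mouse, Ctrl 4 lay among them, and so the groups overlapped. The mean was 74.6 ± 9.97 CPM in Ctrl, 59.5 ± 6.40 in Model, 63.0 ± 9.29 in YHY. The log2 fold change in Model against Ctrl was -0.33 ± 0.15, with 4 of 4 Model mice below the Ctrl mean and an edgeR adjusted P of 0.0944. Without Ctrl 4 or without Model 1 it passed the limit, at -0.47 to -0.46 and edgeR adjusted P from 0.0317 to 0.0330. It also passed with only the 8 mice of the pair (0.0489), with library size alone (0.00694) and without Ctrl 2, Model 1 and YHY 4 (0.0477). Rgs5 thus stood on the other side of 0 from Cspg4 and Pdgfrb in the diabetic mice under TMM scaling, although the difference between these genes was not tested and its value was -0.0010 with library size without mitochondrial transcripts. YHY against Model gave 0.08 ± 0.15 and YHY against Ctrl -0.24 ± 0.15, at edgeR adjusted P of 0.767 and 0.187. With library size alone Rgs5 was called lower in YHY against Ctrl, at -0.66 and an edgeR adjusted P of 0.0117.

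Notch3 (ENSMUSG00000038146, chromosome 17, 32339794 to 32385826), the Notch receptor of mural cells, stood at 10.5, 8.71, 8.94 and 8.15 CPM in Ctrl 1 to 4. It stood at 7.56, 14.9, 12.2 and 13.9 CPM in Model 1 to 4 and at 16.1, 23.8, 12.9 and 11.9 CPM in YHY 1 to 4. Model 1 lay below every Ctrl mouse and the other Model mice above them, while every YHY mouse lay above every Ctrl mouse. Means were 9.07 ± 1.00 CPM in Ctrl, 12.2 ± 3.26 in Model, 16.2 ± 5.41 in YHY. Notch3 rose by 0.83 ± 0.24 (1.78-fold) in YHY against Ctrl, in 4 of 4 mice, with an edgeR adjusted P of 0.00805 and an exact permutation P of 0.0286. The call was lost with library size alone, where the value was 0.37 (edgeR adjusted P = 0.183), and without Ctrl 2 and YHY 2, where it was 0.56 (0.0697). In Model against Ctrl it gave 0.42 ± 0.24 (edgeR adjusted P = 0.174), and in YHY against Model 0.41 ± 0.24 (0.268). With a mouse left out the value in YHY against Model ran from 0.17 to 0.53. Without Ctrl 2 and YHY 2 it was 0.17 there (edgeR adjusted P = 0.694). In GENCODE vM21, 6.03% of its exonic bases are shared with Gm17276 on the opposite strand, which had 20 to 102 counts per mouse. For Des 5.86% and for Pdgfra 6.21% of the exonic bases are shared with opposite-strand genes, all of which had 0 counts in every mouse.

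Without Ctrl 2 and YHY 2, which stood above their groups in mitochondrial share, 3 of the 10 genes were called in Model against Ctrl (Des, Cspg4 and Pdgfrb), against 37.1% of all genes. It left 1 call in YHY against Model (Cspg4, which fell by 0.79 at an edgeR adjusted P of 0.0144), against 9.98% of all genes, and 3 in YHY against Ctrl (Des, Pdgfra and Pdgfrb), against 43.1%. In that alternative, chosen after seeing the data, the change of Des in Model against Ctrl was 0.77 with an edgeR adjusted P of 0.000634. Model 1, which stood below its group in that share, was kept there. With Model 1 alone left out, edgeR called 3 of the 10 genes higher and 1 lower (Rgs5) in Model against Ctrl, and 1 lower (Cspg4) in YHY against Model, against 39.0% and 8.72% of all genes. Des and Cspg4 were the genes called in Model against Ctrl whichever single mouse was left out.

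Scaling shifts every comparison with Ctrl. Against TMM, library size alone moved the median log2 fold change of all genes by -0.43 in Model against Ctrl and by -0.43 in YHY against Ctrl, library size without mitochondrial transcripts by 0.33 and 0.47, and the upper quartile by 0.10 and 0.12. For YHY against Model the shift with library size without mitochondrial transcripts was 0.14. Of all genes called in Model against Ctrl, 51.5% were higher with TMM, 21.4% with library size alone and 77.7% with library size without mitochondrial transcripts. Subtracting the median of all genes removes this shift by construction, so close agreement of the scalings after it is no measure of how firm a change is. With library size alone 3 genes were called in Model against Ctrl, Cspg4 higher and Myh11 and Rgs5 lower, against 41.4% of all genes, most of them lower. With library size without mitochondrial transcripts 6 were called, all higher, and the added genes were Acta2 and Notch3, against 42.4% of all genes, most of them higher.

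**Figure D3:**
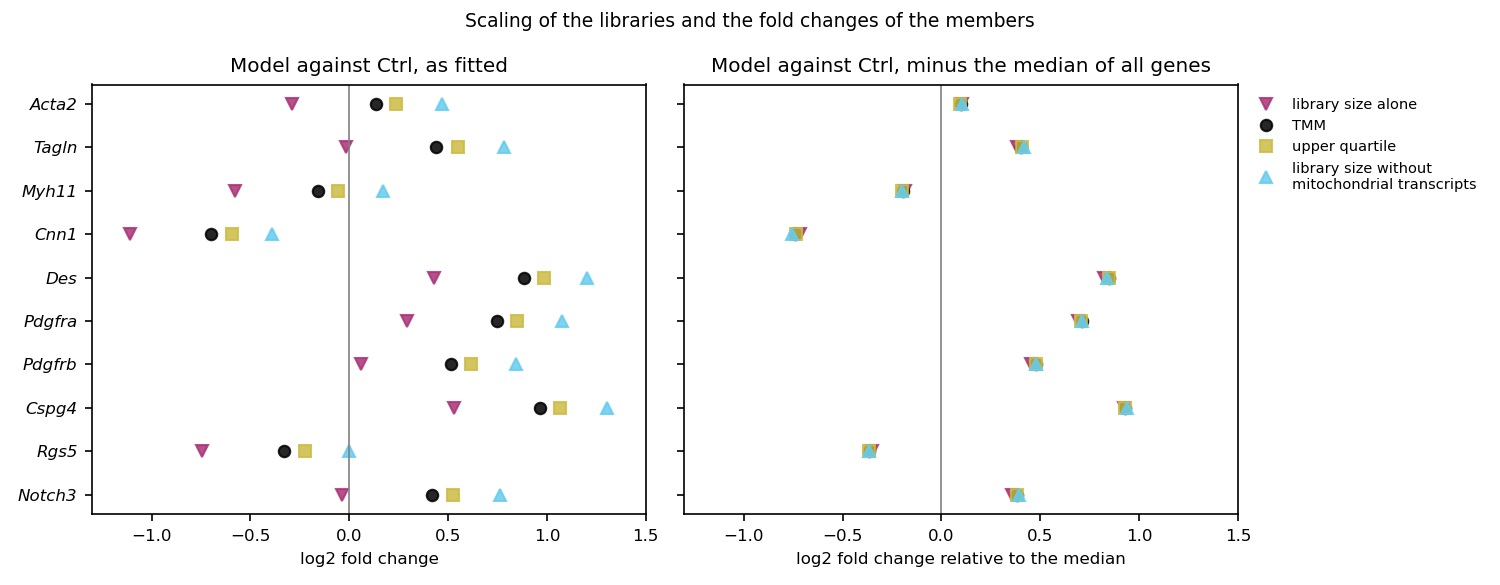
Log2 fold change of each gene in Model against Ctrl (n = 4 mice per group) under 4 scalings of the libraries, as fitted on the left and relative to the median of all genes on the right. On the left Acta2, Tagln, Myh11 and Notch3 cross 0, with Myh11 running from -0.58 to 0.17. The right side takes out by construction any shift common to all genes.

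Other genes of the contractile apparatus were read from a list of 19, all tested, that holds actin, myosin and tropomyosin partners of smooth muscle. Summed over the list, the level was 446.0, 370.5, 417.6 and 415.8 CPM in Ctrl 1 to 4, 470.9, 560.1, 473.6 and 470.9 in Model 1 to 4, and 587.0, 549.9, 522.7 and 471.0 in YHY 1 to 4. Every db/db mouse lay above every Ctrl mouse in this sum, in which Flna is the most abundant gene. In Model against Ctrl, 7 genes were higher and 4 lower, with a median log2 fold change of -0.07 beside 0.04 for all genes tested. With library size alone 8 were lower and 0 higher, and with library size without mitochondrial transcripts 8 of 18 were higher and 0 lower, so the balance of directions follows the scaling. Synpo2, an actin-bundling protein, fell by 1.02 ± 0.28 (log2 fold change ± SE, edgeR adjusted P = 0.00902) and Lmod1, which nucleates actin filaments, fell by 0.99 ± 0.37 (0.0460). Mustn1 rose by 0.92 ± 0.22 (0.00393) and Sncg, a synuclein found in vascular smooth muscle, rose by 0.81 ± 0.19 (0.00283). Of the 5 contractile genes among the 10, Des alone was called in this comparison, higher.

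With YHY set against Model, 3 of the 19 contractile genes were called, all higher, with a median of 0.24 beside 0.02 for all genes. Ppp1r12b, a regulatory subunit of myosin phosphatase, rose by 0.83 ± 0.24 (edgeR adjusted P = 0.0316), Hspb6, a small heat shock protein of smooth muscle, by 0.56 ± 0.17 (0.0433) and Tpm1, a tropomyosin, by 0.52 ± 0.16 (0.0385). Tpm1 had fallen by 0.58 ± 0.16 in Model against Ctrl (0.00893). Hspb6 stood at 11.5 to 14.9 CPM in YHY and 7.31 to 10.7 CPM in Model, and Tpm1 at 57.1 to 83.5 and 44.1 to 52.6 CPM, so neither gene overlapped between these groups. Ppp1r12b did overlap, with YHY 1 at 8.74 CPM below Model 2 at 9.48 CPM. Myh11, called in the same comparison, had YHY 4 among the Model mice. Without Ctrl 2 and YHY 2, edgeR called 0 of the 19 in this comparison, and with library size alone 1. For YHY against Ctrl, 7 were higher and 0 lower by edgeR and by DESeq2, with a median of 0.21 beside 0.10, whereas library size alone gave 1 higher and 3 lower.

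Of 7 regulators of these genes by serum response factor and its myocardin-family partners, 6 were tested. Myocd, myocardin itself, was too scarce to test at a mean of 0.0493 CPM. For Model against Ctrl, 1 was called, Mrtfb, a myocardin-related coactivator, which rose by 0.51 ± 0.14 (edgeR adjusted P = 0.0111), whereas library size alone gave 0 higher and 2 lower. Srf, the factor that binds the CArG box, stood at 12.6 to 20.5 CPM in Model and 8.49 to 9.67 CPM in YHY, without overlap. It fell by 0.81 ± 0.17 in YHY against Model (edgeR adjusted P = 0.00741), where Mrtfb rose by 0.45 ± 0.14 (0.0492). The partners thus moved in opposite directions in YHY against Model. When YHY was set against Ctrl, 3 were called, Mrtfa and Mrtfb higher and Srf lower, with Mrtfa named after its value was seen. The median over the 6 was 0.33, 0.26 and 0.29 in Model against Ctrl, YHY against Model and YHY against Ctrl, beside 0.04, 0.02 and 0.10 for all genes.

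Of the 4 PDGF ligands, 3 were called in Model against Ctrl. Pdgfa stood at 17.6 to 20.3 CPM in Ctrl, 32.9 to 52.5 in Model and 28.4 to 55.4 in YHY, and rose by 1.33 ± 0.20 in Model against Ctrl (edgeR adjusted P = 0.000120). Pdgfd, a ligand of the beta receptor, stood at 10.1 to 18.1 CPM in Ctrl and 4.33 to 6.50 in Model and fell by 1.41 ± 0.22 (0.000144). Pdgfc, a ligand of the alpha receptor, fell by 1.11 ± 0.26 (0.00305). Pdgfb, the ligand by which endothelium recruits pericytes, stood at 0.47 ± 0.18 there and did not pass (0.0534). In YHY against Model Pdgfb fell by 0.80 ± 0.19 (0.0120), with 9.08 to 14.2 CPM in YHY and 15.2 to 25.0 CPM in Model, without overlap, and was the 1 ligand called. In YHY against Ctrl Pdgfa was higher and Pdgfc and Pdgfd lower. By edgeR both receptors were thus higher in Model than in Ctrl while 1 ligand rose and 2 fell, and DESeq2 called 2 ligands higher and 2 lower. Library size alone gave 1 ligand higher and 2 lower as well, but neither receptor was called with it. Pdgfra stood at 0.29 (edgeR adjusted P = 0.414) and Pdgfrb at 0.06 (0.802).

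Of 12 Notch pathway genes beside Notch3, 3 were higher and 1 lower in Model against Ctrl, with a median of -0.21 beside 0.04 for all genes. With library size alone 1 was higher and 5 lower, and with library size without mitochondrial transcripts 4 were higher and 0 lower. Notch4, the endothelial receptor, rose by 0.95 ± 0.17 (edgeR adjusted P = 0.000384), the ligand Jag2 by 0.67 ± 0.20 (0.0133) and the target Hes1 by 0.60 ± 0.15 (0.00413), and Notch2 fell by 0.58 ± 0.18 (0.0167). For YHY against Model, 4 were called, all higher, with a median of 0.40 beside 0.02. They were Notch1 at 1.01 ± 0.23 (0.0117), the ligand Jag1 at 0.73 ± 0.16 (0.00991), Notch2 at 0.70 ± 0.18 (0.0172) and Notch4 at 0.57 ± 0.16 (0.0315). Jag1 stood at 13.6 to 18.8 CPM in Model and 22.4 to 30.8 CPM in YHY, without overlap, and Notch1 at 3.88 to 5.34 and 5.75 to 10.6 CPM, likewise without overlap. Notch2 stood at 11.3 to 15.9 and 17.0 to 25.1 CPM, again without overlap. Notch4 did overlap, with YHY 4 at 39.3 CPM below Model 2 at 41.7 CPM. Receptors and a ligand were thus called in YHY against Model, while none of the targets in the list, Hes1, Hey1, Hey2 and Heyl, passed in edgeR. The count was 1 with library size alone and 3 without Ctrl 2 and YHY 2. For YHY against Ctrl, 6 were higher, whereas library size alone gave 2 higher and 2 lower. Notch3 itself passed in YHY against Ctrl alone.

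Further markers of the same cells were read from 3 lists. Of 5 other mesangial genes, 4 were tested, Tbx18 being too scarce at 0.109 CPM, and 2 were called in Model against Ctrl. Gata3, a transcription factor of mesangial cells and of the collecting duct, rose by 1.19 ± 0.15 (edgeR adjusted P = 2.85e-05), from 9.01 to 11.3 CPM in Ctrl to 21.6 to 25.1 in Model, and Ebf1, a factor of stromal progenitors, rose by 1.25 ± 0.24 (0.000700). Both were also called higher in YHY against Ctrl. With YHY set against Model, edgeR and DESeq2 called 0 of them, and 0 had an unadjusted P under 0.05. Of 10 other pericyte genes, 1 was higher and 2 were lower in Model against Ctrl, with a median of 0.27 beside 0.04, whereas library size without mitochondrial transcripts gave 3 higher and 1 lower. Cd248 (endosialin) rose by 1.21 ± 0.29 (0.00421), whereas Abcc9 and Kcnj8, the subunits of the potassium channel of pericytes, fell by 0.90 ± 0.19 (0.00177) and by 0.89 ± 0.25 (0.0106). Of the 10, library size alone gave 1 higher and 3 lower. Cspg4 and Rgs5 stood on opposite sides of 0 in the same comparison. In YHY against Model edgeR called 0 of the 10, DESeq2 called 2 lower, and 3 had an unadjusted P under 0.05. When YHY was set against Ctrl, 1 was higher (Cd248) and 2 were lower (Abcc9 and Kcnj8).

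The 2 renin cell genes, Ren1 and Akr1b7, were lower in YHY against Ctrl, named after their values were seen, at -1.63 ± 0.43 (edgeR adjusted P = 0.00494) and -1.29 ± 0.43 (0.0196). Their summed level ran from 76.9 to 169.0 CPM in Ctrl, from 39.5 to 103.6 in Model and from 14.0 to 65.7 in YHY, so YHY did not overlap with Ctrl. In Model against Ctrl edgeR and DESeq2 called 0 of the 2, and 0 had an unadjusted P under 0.05. For YHY against Model both tools again called 0, and 2 had an unadjusted P under 0.05. Of 10 fibroblast genes, all tested, edgeR called 0 in Model against Ctrl, and YHY against Model likewise gave 0. In these pairs edgeR with library size alone called 2 lower and 0. DESeq2 called 0 and 1 of them, and 2 had an unadjusted P under 0.05 in each pair. In YHY against Ctrl, 2 were higher, Col1a2 at 0.90 ± 0.27 (0.0114) and Gli1 at 2.67 ± 0.58 (0.00124), again named after their values were seen. Fibroblasts also carry Pdgfra. The summed fibroblast level was 250.1, 313.6, 182.6 and 94.4 CPM in YHY 1 to 4, the same order of mice as Pdgfra but for YHY 1 and 2, and ran from 133.8 to 200.1 CPM in Ctrl and from 151.7 to 239.7 CPM in Model. Their part in the values of Pdgfra was not tested.

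**Figure D4:**
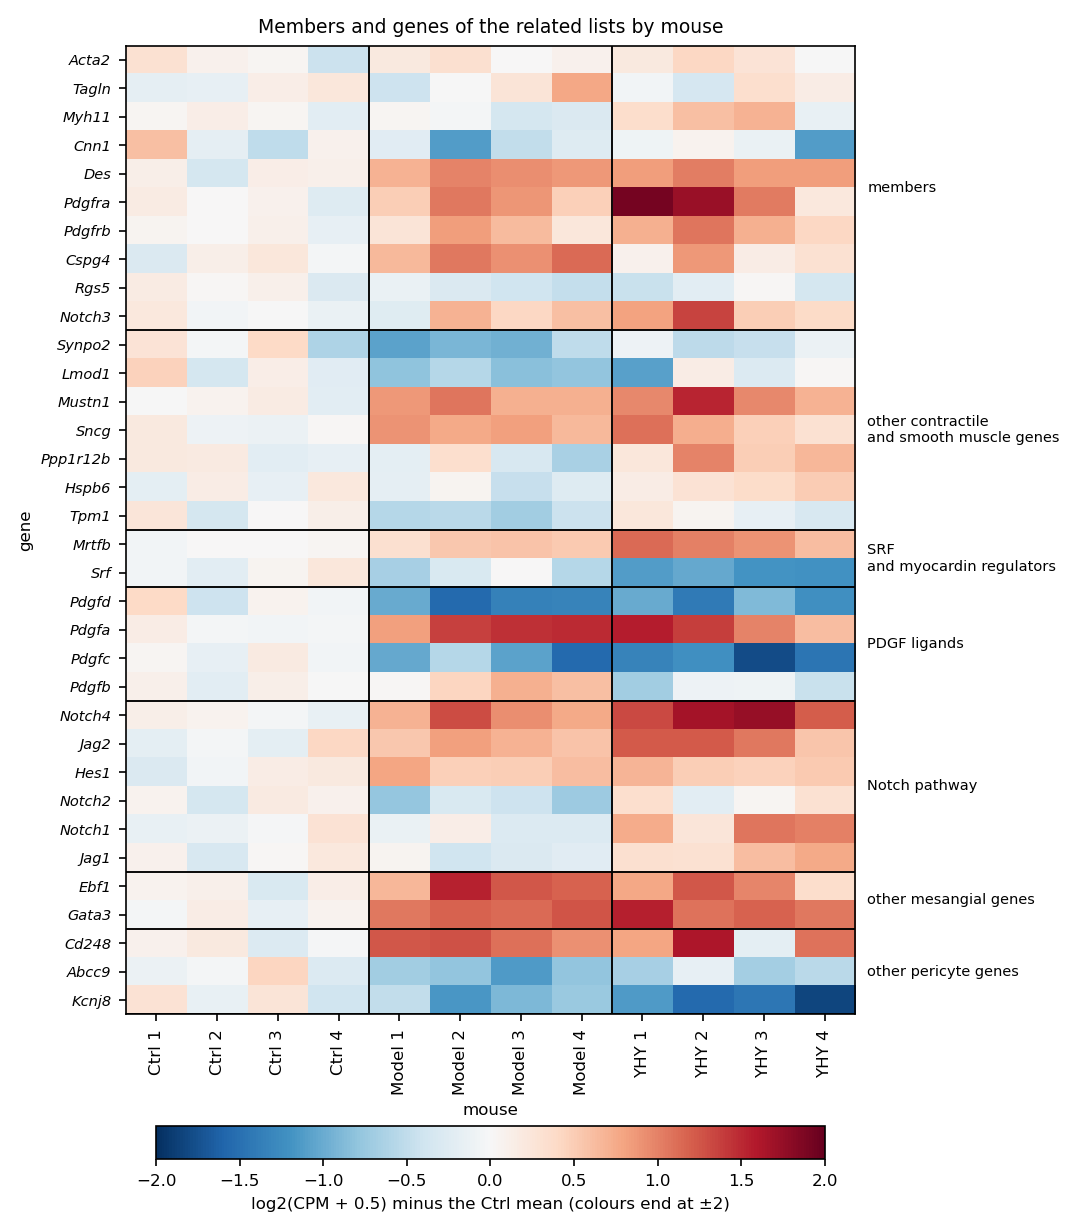
Colour gives log2(CPM + 0.5) minus the Ctrl mean for the 10 genes and for genes named from the related lists, with 1 column per mouse and colours ending at 2 on either side. Des, Pdgfra, Pdgfrb and Gata3 are red in all 8 db/db mice, Pdgfd and Kcnj8 are blue in them, and Srf is bluest in the YHY mice, where its CPM runs from 8.49 to 9.67.

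Markers of other kidney cells also moved with the groups. Of 6 proximal tubule genes, all tested, 3 were lower in Model against Ctrl by edgeR, 4 by DESeq2 and 4 with library size alone, with a median of -0.82. Slc34a1 at 0.06 and Slc5a2 at 0.42, the latter named after its value was seen, stood on the other side of 0 and were not called. Lrp2 (megalin) fell by 1.68 ± 0.29 (edgeR adjusted P = 0.000399), the water channel Aqp1 by 0.94 ± 0.29 (0.0162) and Cubn (cubilin) by 0.90 ± 0.21 (0.00360). The summed level of the list, in which Slc34a1 is the most abundant gene, was 4276, 5462, 4539 and 4130 CPM in Ctrl 1 to 4, 3415, 3445, 3729 and 2971 in Model 1 to 4, and 1577, 3055, 2078 and 3745 in YHY 1 to 4. Every db/db mouse was below every Ctrl mouse in this sum, the reverse of Des, Pdgfra and Pdgfrb. With YHY set against Model, edgeR called 0 of the 6, DESeq2 called 3 lower, and 3 had an unadjusted P under 0.05, while in YHY against Ctrl, 4 were lower. The part of the tubule genes in the values of the 10 genes was not tested.

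Of 4 genes of the loop and distal tubule, 1 was higher and 1 lower in Model against Ctrl, and the same genes were called in YHY against Ctrl. Umod (uromodulin) fell by 2.86 ± 0.38 (edgeR adjusted P = 5.43e-05) and the salt transporter Slc12a3 rose by 1.33 ± 0.22 (0.000256). The summed level, with Slc12a1 most abundant, was 2038, 1394, 2298 and 2300 CPM in Ctrl 1 to 4, 1603, 1455, 1261 and 1623 in Model 1 to 4, and 1652, 1514, 2291 and 1519 in YHY 1 to 4. Of 5 collecting duct genes the same 2 were lower in both comparisons with Ctrl by edgeR, of which DESeq2 called 1 in Model against Ctrl, whereas library size alone gave 4 lower there. Aqp3 fell by 1.72 ± 0.30 (0.000389) in Model, and Aqp2, the most abundant of the list, by 1.18 ± 0.42 (0.0354). The summed level was 854.8, 516.4, 584.0 and 1393 CPM in Ctrl 1 to 4, 503.5, 326.2, 388.2 and 375.1 in Model 1 to 4, and 598.1, 238.1, 364.0 and 215.8 in YHY 1 to 4. In YHY against Model edgeR called 0 genes of either list, and DESeq2 called 1 higher and 1 lower in the first and 0 in the second. At an unadjusted P under 0.05 there were 2 and 0. The part of these genes was not tested either.

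The glomerulus and its vessels hold the nearest neighbours of mesangial cells and pericytes. Of 5 podocyte genes 2 were higher in Model against Ctrl, Nphs1 (nephrin) at 1.86 ± 0.25 (edgeR adjusted P = 5.44e-05) and Synpo (synaptopodin) at 0.53 ± 0.20 (0.0435). Library size alone gave 1 higher and 1 lower, and Synpo was 0.11 (0.732). The summed podocyte level, with Podxl most abundant, was 107.4, 120.0, 147.1 and 140.2 CPM in Ctrl 1 to 4, 249.6, 125.9, 142.0 and 100.2 in Model 1 to 4, and 74.1, 118.3, 81.7 and 152.6 in YHY 1 to 4. Model 1 was the highest of these mice and the groups overlapped. Of 6 endothelial genes 1 was higher in Model against Ctrl, Flt1, a receptor for vascular endothelial growth factor, at 0.67 ± 0.11 (0.000310), and with library size alone 0 were. The summed endothelial level, with Emcn most abundant, was 222.3, 158.7, 221.2 and 219.8 CPM in Ctrl 1 to 4, 270.9, 220.5, 233.6 and 208.3 in Model 1 to 4, and 315.8, 198.0, 231.0 and 196.6 in YHY 1 to 4, with overlap between all groups. For YHY against Model edgeR called 0 genes of either list, DESeq2 called 0 podocyte genes and 1 endothelial gene, and 2 and 1 had an unadjusted P under 0.05. For YHY against Ctrl, 3 podocyte genes were higher and 1 lower (Nphs1, Wt1 and Synpo, and Podxl, named after their values were seen), and 1 endothelial gene was higher (Flt1). Their part in the values of the 10 genes was not tested.

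Of 5 macrophage and leukocyte genes 1 was higher in Model against Ctrl, Cd68 at 1.05 ± 0.28 (edgeR adjusted P = 0.00730, with 0 called with library size alone), and 2 in YHY against Ctrl, Cd68 and Lyz2, both named after their YHY values were seen. The summed level, with Lyz2 most abundant, was 181.4, 123.1, 183.1 and 148.6 CPM in Ctrl 1 to 4, 169.6, 186.6, 229.2 and 284.7 in Model 1 to 4, and 303.8, 454.4, 200.7 and 162.5 in YHY 1 to 4. YHY 1 and 2 were highest, as they were for Pdgfra and Notch3. Of 5 red blood cell genes 1 was higher (Hba-a2) and 3 were lower in Model against Ctrl (Alas2, Hbb-bs and Hbb-bt), and with library size alone 0 and 3. When YHY was set against Model, 2 were higher, Alas2 and Hbb-bs, and in YHY against Ctrl Hba-a1 and Hba-a2 were, named after their values were seen. Their summed level, with Hba-a1 most abundant, was 458.0, 306.2, 372.6 and 686.2 CPM in Ctrl 1 to 4, 476.4, 430.2, 292.8 and 271.2 in Model 1 to 4, and 491.9, 324.2, 791.4 and 1061 in YHY 1 to 4. YHY 4, the highest of these, was the lowest YHY mouse for Myh11, Pdgfra, Pdgfrb and Notch3. The part of blood and of leukocytes was not tested.

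Markers of tissues near the kidney were read next, and those of skeletal and cardiac muscle and of adrenal cortex were scarce. Of 7 skeletal and cardiac muscle genes 2 were tested, and edgeR and DESeq2 called 0 of them in each comparison, with 1 in YHY against Model at an unadjusted P under 0.05. The summed level of that list was 1.23 to 2.56 CPM in Ctrl, 1.74 to 4.05 in Model and 1.49 to 2.90 in YHY, with Mylpf most abundant at a mean of 1.33 CPM. The 5 untested genes, Acta1, Actc1, Ckm, Myh4 and Tnnt3, had means of at most 0.165 CPM. Of 5 adipocyte genes 2 were tested, and 0 passed in edgeR, in DESeq2 or at an unadjusted P under 0.05. Their sum ran from 41.8 to 62.9 CPM in Ctrl, 48.6 to 60.03 in Model and 50.8 to 89.1 in YHY, nearly all of it Fabp4, which endothelium also expresses, while Adipoq, Plin1 and Lep had means of at most 0.123 CPM. Of 5 urothelium genes edgeR called 0 in either Model against Ctrl or YHY against Model, where DESeq2 called 0 and 1 and where 0 and 2 had an unadjusted P under 0.05, and 1 was higher in YHY against Ctrl (Upk2, named after its value was seen). Their sum, with Upk3a most abundant, was 61.7 CPM in YHY 1 and 3.56 to 17.7 CPM in the other mice. Of 5 adrenal cortex genes 1 was tested, Star, higher in Model against Ctrl at 1.32 ± 0.27 (edgeR adjusted P = 0.00128) and in YHY against Ctrl. Cyp11b2 had 0 counts in every mouse, and the sum of the list ran from 1.44 to 2.31 CPM in Ctrl, 3.35 to 6.05 in Model and 3.48 to 4.15 in YHY. Pieces of renal pelvis and of adrenal gland may be in such tissue, and their part in the values was not tested.

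For likeness of pattern, each of the 10 genes was set beside 14121 genes with a mean of at least 1 CPM by the root mean square difference of log2(CPM + 0.5) over the 12 mice after removing each gene's mean, where a smaller value is more alike. The nearest genes to Des were Stk10 at 0.13 and Trim3 at 0.15, beside a median of 0.59 between Des and all genes compared. Cspg4 was nearest to Gm8971 at 0.14 and Pcbp4 at 0.17, Pdgfra to Lrp1 at 0.19 and Klhl6 at 0.20, and Pdgfrb to H2-Q4 and Slc50a1, both at 0.13. Myh11 was nearest to Rasal2 and Gm20457, both at 0.17, Rgs5 to H2-K1 and Zc3hc1, both at 0.11, and Notch3 to Mcm3ap at 0.12 and Dhx30 at 0.14. For Acta2 the nearest were Wdr70 at 0.13 and Gtf3c3 at 0.14, and for Cnn1 Trim47 at 0.27 and Foxred2 at 0.28. Tagln, at a mean of 0.395 CPM, lies under that floor and near the 0.5 CPM added, so its nearest genes are not given. Within the 10 genes, Pdgfrb and Notch3 were the most alike at 0.23, followed by Des and Pdgfrb at 0.25, and Acta2 and Myh11 at 0.25. Of the genes compared, 189 were nearer to Pdgfrb than Notch3 was, and 64 (0.453%) were nearer to Notch3 than Pdgfrb was. For Acta2 and Myh11 these numbers were 402 (2.85%) and 82 (0.581%).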

How the data were processed

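Kidney RNA of 12 mice, 4 per group, was sequenced with a polyA, strand-keeping library. The authors deposited raw counts per gene, which per the submitters' processing notes came from FastQC 0.11.9, Trimmomatic 0.39, HISAT2 2.2.1 on GRCm39, SAMtools 1.12 and featureCounts 2.0.1; the strand setting of the counting is not stated. The other deposited tables hold 12 per-mouse normalized columns, group means, fold changes and P values (the notes name DESeq2 1.34.0 in R 4.1.2) and pathway enrichment, and no value of these was used. Earlier results about those group means did prompt the alternative without Ctrl 2, Model 1 and YHY 4. Counts were fitted over all 12 mice with edgeR 4.0.16 in R 4.3.3 (filterByExpr, TMM, quasi-likelihood, P two-sided), and P was adjusted by Benjamini-Hochberg over 17431 genes. A single count stood for 0.0228 to 0.0553 CPM. Alternatives were DESeq2 1.42.0, other scalings and filters, a replicate block, and mice left out. Beside the 10 genes, 19 lists were read, and the genes named were up to 4 called genes per list by size of log2 fold change in Model against Ctrl, then YHY against Model, the most abundant marker of each other cell type, and the 2 most alike genes per member but Tagln. Other genes, among them those called in YHY against Ctrl alone, were named after their values were seen. The members and lists were chosen with earlier results of these data known. The exact permutation test, likeness and promoter search used Python 3.11.15, numpy 2.4.6, pandas 2.3.3 and scipy 1.17.1, with figures by matplotlib 3.10.9. The scripts were tested on simulated data.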

Additional observations from a re-analysis of the deposited data

Results flagged for a closer look

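Each value here stands far from the other 3 mice of its group, by a gap test within groups of 4. Of 213 such groups 11 passed the limit, and chance alone gives about 1 in 20; of the 30 groups of the 10 genes, 2 passed. Des was low in Ctrl 2, at 9.17 CPM with the nearest mouse at 12.8, and high in YHY 2, at 24.6 CPM with the nearest at 21.7. Mitochondrial transcripts were high in Ctrl 2, at 22.7% with the nearest at 18.6%, and in YHY 2, at 64.6% with the nearest at 54.6%. Ctrl 2 also had the fewest counts of its group, 29632718 with the nearest at 32677732. The summed CPM of other contractile and smooth muscle genes was high in Model 2, at 560.1 with the nearest at 473.6, and that of endothelial genes low in Ctrl 2, at 158.7 with the nearest at 219.8. Lmod1 was high in Model 2, at 1.52 CPM with the nearest at 1.24. Pdgfa was high in Ctrl 1, at 20.3 CPM with the nearest at 17.8, and Ebf1 low in Ctrl 3, at 3.77 CPM with the nearest at 5.07. Slc12a3 was high in YHY 2, at 465.9 CPM with the nearest at 303.9.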

How the results depend on the processing

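Of the 10 genes' fold changes under the alternatives, 601 kept their label, 26 grew stronger, 35 weaker and 24 turned sign; none that turned was called on either side, and the cause was not tested. With library size alone the sign turned for Acta2 (-0.29), Tagln (-0.014) and Notch3 (-0.037) in Model against Ctrl, and for Acta2 (-0.22), Tagln (-0.32), Myh11 (-0.0092) and Cspg4 (-0.085) in YHY against Ctrl. With library size without mitochondrial transcripts it turned for Myh11 in Model against Ctrl (0.17) and for Cnn1 (0.079) and Rgs5 (0.24) in YHY against Ctrl. Without Ctrl 2, Model 1 and YHY 4 it turned for Des in YHY against Model (-0.013) and Tagln in YHY against Ctrl (-0.14), and without Ctrl 2 and YHY 2 for Acta2 (-0.0049) and Des (-0.034) in YHY against Model. With each mouse left out in turn, ranges that cross 0 were -0.044 to 0.19 for Acta2 and -0.13 to 0.71 for Tagln in Model against Ctrl, -0.0056 to 0.13 for Acta2, -0.68 to 0.21 for Tagln, -0.041 to 0.056 for Des and -0.018 to 0.16 for Rgs5 in YHY against Model, and -0.20 to 0.30 for Tagln in YHY against Ctrl. Members called in YHY against Model, 1 in edgeR with TMM, were 3 by the fold limit of 1.2 with unadjusted P under 0.05 (28.6% of all genes), 2 by DESeq2 (17.9%), 0 with library size alone (6.75%), 2 with no filter beyond 1 count (8.16%), 0 with only the 8 mice compared (8.42%), 2 with the replicate block (11%) and 2 without Ctrl 2, Model 1 and YHY 4 (12.2%). Beside Myh11, the second gene was Cspg4, lower, by DESeq2, with no such filter and with the block, and Pdgfra, higher, without those 3 mice. In YHY against Ctrl, 4 were called with TMM (50.3% of all genes), 2 with library size alone (Pdgfra higher and Rgs5 lower, 47.9%), 6 with the upper quartile (50.7%) and 7 with library size without mitochondrial transcripts (56.5%). With a mouse left out the counts ran from 2 to 4, from 0 to 2 and from 4 to 5 in Model against Ctrl, YHY against Model and YHY against Ctrl, with 29.3% to 39.9%, 6.34% to 15.3% and 43.9% to 50.2% of all genes called. With the replicate block they were 4, 2 and 4 (36.1%, 11% and 48.3% of all genes). Mice of the same number correlated at -0.208 to 0.170 over 12 pairs, and other pairs at -0.320 to 0.261, so no pairing by number was seen. Whether the numbers stand for a pairing cannot be told from these values. Tagln and Cnn1 had only 3 to 22 and 13 to 133 counts per mouse, and whether depth or spread between mice limits them was not tested.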
